A study of Mus musculus with 9 samples.

Results

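The epidermis of mouse ears treated with imiquimod was compared here with that of ears treated with Vaseline, in mice gavaged with water in place of a drug. The members were all genes of the deposited epidermal count table with at least 10 counts in 3 or more of the 6 libraries of these groups, which left 18152 of 52550 genes. The 6 libraries, of 9 epidermal libraries in the series, were 3 of VAS + H2O and 3 of IMQ + H2O. Mice of both groups were wild-type, of strain C57BL/6 and 8 weeks old by the labels, and by the methods C57BL/6J and male. Ears received Vaseline or imiquimod cream once a day for 5 days, and all mice were gavaged with ddH2O for 10 days, beginning 5 days before the topical treatment, so that water gavage was shared by both groups. The comparison asks how the epidermal transcriptome differed between imiquimod cream and Vaseline, before any drug was tested on it. The methods name no control with the base of the cream, so imiquimod and that base cannot be told apart. The methods state that RNA came from ear sheets of a pair of mice without saying whether each library did. The sources give 3 samples per group but do not say that they were separate animals, so p-values measure the spread between these samples, which may be partly technical.

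Imiquimod is an agonist of Toll-like receptor 7, a sensor of single-stranded RNA in plasmacytoid dendritic cells and macrophages. Applied to mouse skin, it sets off a psoriasis-like dermatitis in which IL-23 drives gamma delta T cells to release IL-17 and IL-22, and keratinocytes answer these cytokines by dividing faster, thickening, switching on stress keratins and secreting antimicrobial proteins and neutrophil-attracting chemokines. The epidermis itself is a sheet of keratinocytes that holds Langerhans cells, dendritic epidermal T cells and melanocytes, with hair follicles and sebaceous glands attached, while the ear below it has dermis, cartilage and muscle.

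Sequencing yielded 30298275 to 44681447 counts per library, and the genes tested held at least 99.88% of them. A count of 3, taken as the floor of detection, corresponded to 0.0671 to 0.0990 CPM (the count divided by the library total and multiplied up, scaled with TMM factors in all values below), and such floors cover counting error only. Keratinocyte markers were as the label requires, with Krt5, the keratin of basal cells, at 6881, 6258 and 8859 CPM in VAS + H2O and 8837, 8700.0 and 9770.0 CPM in IMQ + H2O. One library of each group stood apart. VAS + H2O replicate 2 carried 484 CPM of 16 skeletal muscle markers against 9.01 to 16.8 CPM in the other 5 libraries, and 2377 CPM of 25 dermal fibroblast markers against 614 to 957 CPM. IMQ + H2O replicate 3 carried 138 CPM of the 16 neutrophil markers that were too low to be tested, against 0.229 to 4.65 CPM elsewhere. Their part in the results below was not tested, and counts without them are given where they move.

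At an adjusted p of at most 0.05 in edgeR's quasi-likelihood test (the meaning of rose and fell below), 2438 genes rose, which was 13.4% of all genes tested, and 1469 fell, or 8.09%. Requiring also a change of 2-fold or more, there were 694 DEGs higher in IMQ + H2O (3.82%) and 661 lower (3.64%). Numbers and typical sizes were close on both sides, the median log2 fold change being 1.51 in the higher and -1.53 in the lower DEGs, while at least 4-fold changes were found in 223 and 171 and at least 16-fold changes in 71 and 17. The higher DEGs together took 1.62% to 1.77% of counts in the VAS + H2O libraries and 4.35% to 6.96% in the IMQ + H2O libraries, whereas the lower DEGs took 1.93% to 2.90% and 0.623% to 0.843%. Of the genes tested, 227 had passed the count minimum in libraries of only 1 group, and 115 of these were DEGs, 66 higher and 49 lower. Values of the groups did not overlap for 8160 of all genes tested, or 44.95%. A lack of overlap, as given for genes below, was therefore common and adds little to a call. Under upper quartile normalization the split became 571 higher and 830 lower. Without VAS + H2O replicate 2 and IMQ + H2O replicate 3, chosen after the data were seen, 302 and 197 DEGs were called, 283 and 170 of them among those above. With the mean level of cartilage and fibroblast genes as a covariate in edgeR, 0 genes were called in either direction, the smallest adjusted p being 0.112 with 2100 genes at an unadjusted p under 0.05, while 97.5% of the DEGs kept their sign. Both lists averaged lower in every IMQ + H2O library than in any VAS + H2O library. The fit therefore cannot separate their level from treatment, and its 0 calls decide nothing. Within IMQ + H2O, replicate 3 was the highest library for 549 of the 694 higher DEGs, and within VAS + H2O, replicate 2 was the highest for 454 of the 661 lower DEGs.

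**Figure D1:**
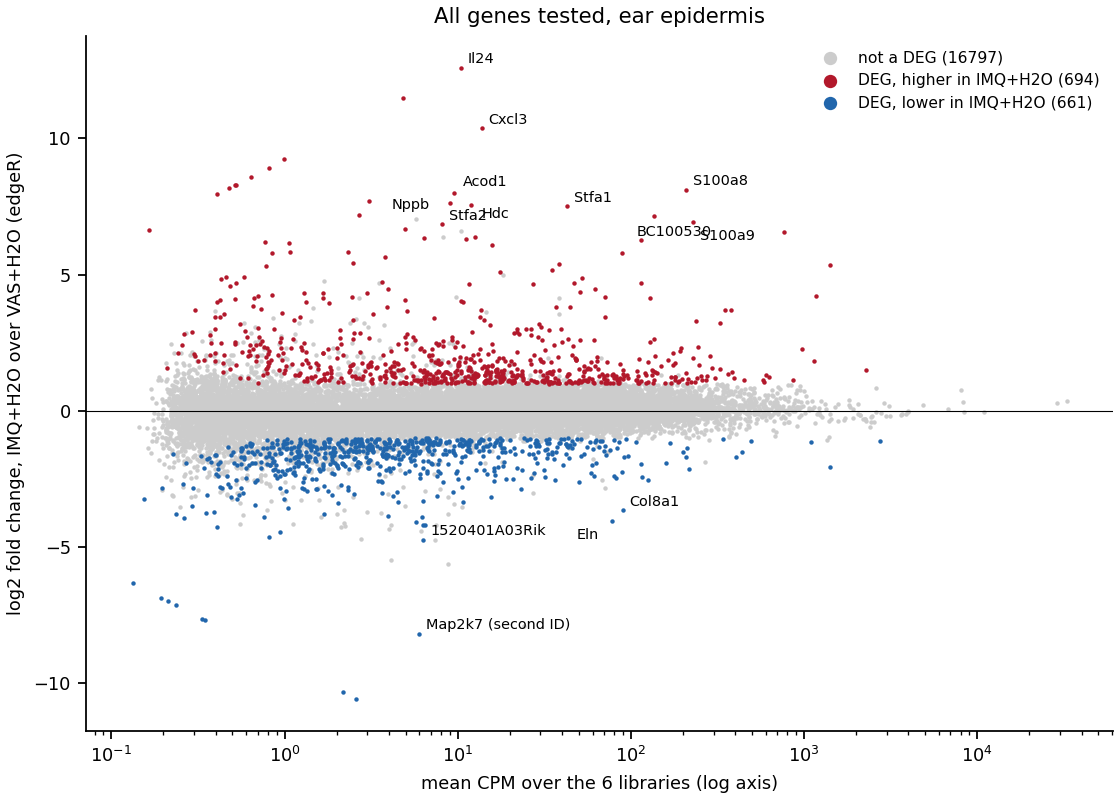
Each point is 1 of the 18152 genes tested, with its mean CPM over the 6 libraries on a log axis and its edgeR log2 fold change, positive where IMQ + H2O was higher. Coloured points are the 694 higher and 661 lower DEGs, and the names mark genes with the largest and smallest fold changes at a mean of at least 5 CPM, where the higher side reaches farther from 0 than the lower side.

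Among DEGs without overlap between groups and with a mean of at least 5 CPM, the 10 with the largest log2 fold changes were Il24, Cxcl3, S100a8, Acod1, Nppb, Hdc, Stfa1, BC100530, S100a9 and Stfa2. Il24, a cytokine of the IL-20 family that keratinocytes both make and sense, had no count in VAS + H2O and 82, 942 and 1473 counts in IMQ + H2O, which was at least 808-fold higher with 3 counts over the VAS + H2O group as the floor. S100a8 and S100a9, the subunits of the alarmin calprotectin, are neighbours on chromosome 3. S100a8 measured 2.13, 1.16 and 1.09 CPM in VAS + H2O and 106, 143 and 998 CPM in IMQ + H2O (log2 fold change 8.12 ± 1.15, adjusted p = 0.00821), and S100a9 measured 5.11, 2.77 and 3.09 CPM in VAS + H2O and 127, 167 and 1069 CPM in IMQ + H2O (log2 fold change 6.94 ± 1.03, adjusted p = 0.00893). A lack of overlap was required of this set, so only the width of the gap is a result. For both genes replicate 3 lay several-fold above the other IMQ + H2O libraries.

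The stefin genes Stfa1, Stfa2, Stfa3 and BC100530, which encode inhibitors of cysteine proteases, lie side by side between 36276951 and 36455392 on chromosome 16 (GRCm38). Stfa1 measured 0.549, 0.396 and 0.429 CPM in VAS + H2O and 28.4, 52.7 and 174 CPM in IMQ + H2O (log2 fold change 7.5 ± 0.86, adjusted p = 0.00588). BC100530 measured 2.60, 1.13 and 1.86 CPM in VAS + H2O and 117, 179 and 517 CPM in IMQ + H2O (log2 fold change 7.16 ± 0.72, adjusted p = 0.00501). All 4 rose, but they are close copies and reads could have been divided among them, so each value alone is uncertain. Nppb, which encodes the precursor of B-type natriuretic peptide, measured 0.127, 0.122 and 0 CPM in VAS + H2O and 10.2, 12.9 and 30.4 CPM in IMQ + H2O (log2 fold change 7.64 ± 0.75, adjusted p = 0.00455). Separation of the groups was required by the rule that chose Nppb, and the gap was wide.

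Hdc and Acod1 had most of their signal in a single library. Hdc, the enzyme that makes histamine, measured 0.0844, 0.122 and 0.172 CPM in VAS + H2O and 0.594, 2.92 and 67.3 CPM in IMQ + H2O (log2 fold change 7.55 ± 2.01, adjusted p = 0.0384). Acod1, the enzyme that makes itaconate in activated myeloid cells, measured 0, 0.122 and 0.114 CPM in VAS + H2O and 0.349, 1.74 and 55.1 CPM in IMQ + H2O (log2 fold change 8.01 ± 2.26, adjusted p = 0.0461). That library was IMQ + H2O replicate 3, and without it the log2 fold changes were 3.77 for Hdc (adjusted p = 0.0342) and 3.77 for Acod1 (adjusted p = 0.0753). Leaving out any 1 of the VAS + H2O libraries ended both calls.

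The 10 smallest log2 fold changes included cartilage and elastic matrix genes, 8 of the 10 being highest in VAS + H2O replicate 2. Eln, which encodes elastin, measured 81.0, 253 and 105 CPM in VAS + H2O and 13.6, 8.99 and 3.93 CPM in IMQ + H2O (log2 fold change -4.06 ± 0.61, adjusted p = 0.00909). Col8a1, a short-chain collagen, measured 98.2, 275 and 126 CPM in VAS + H2O and 15.9, 13 and 10.9 CPM in IMQ + H2O (log2 fold change -3.65 ± 0.42, adjusted p = 0.00588), and Col9a1, a collagen of cartilage, measured 9.33, 33.7 and 15.5 CPM in VAS + H2O and 2.10, 2.08 and 1.55 CPM in IMQ + H2O (log2 fold change -3.35 ± 0.49, adjusted p = 0.00871). The rule that chose these 10 genes required that the groups not overlap. Fgf2, a growth factor for keratinocytes and fibroblasts, measured 5.83, 16.2 and 13.8 CPM in VAS + H2O and 1.01, 0.395 and 0.588 CPM in IMQ + H2O (log2 fold change -4.19 ± 0.51, adjusted p = 0.0065). Its values in VAS + H2O replicates 2 and 3 were alike. Krtap3-2, a keratin-associated protein of the hair shaft, measured 13.6, 10.7 and 10.1 CPM in VAS + H2O and 1.4, 1.81 and 0.306 CPM in IMQ + H2O (log2 fold change -3.30 ± 0.56, adjusted p = 0.0115). Also in this set were Col2a1, the main collagen of cartilage (-4.08), Comp, a cartilage matrix protein (-4.20), Fndc1 (-3.92) and 1520401A03Rik (-4.73), of which the last 3 lost their call without IMQ + H2O replicate 1 or replicate 3. The smallest of all belonged to a second identifier under the symbol Map2k7, ENSMUSG00000109061, with 1072, 10 and 448 counts in VAS + H2O and 4, 0 and 0 in IMQ + H2O. It overlaps the main Map2k7 gene on chromosome 8, whose log2 fold change was 0.30 ± 0.24 (adjusted p = 0.405), so this value is uncertain.

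Keratins changed in a pattern of lost and gained members rather than as a whole. The stress keratins Krt6a, Krt6b, Krt16 and Krt17, which keratinocytes make at wound edges and in psoriasis, rose in 4 of 4 cases with a median log2 fold change of 4.77, against 0.001 over all genes. Krt16 measured 56.8, 62.0 and 83.7 CPM in VAS + H2O and 2134, 2003 and 4082 CPM in IMQ + H2O (log2 fold change 5.34 ± 0.36, adjusted p = 0.00162). Krt6b measured 15.1, 14 and 18.9 CPM in VAS + H2O and 490.1, 1106 and 2965 CPM in IMQ + H2O (log2 fold change 6.57 ± 0.73, adjusted p = 0.00563), and its near-identical neighbour Krt6a measured 132, 119 and 109.9 CPM in VAS + H2O and 829, 1642 and 4151 CPM in IMQ + H2O (log2 fold change 4.2 ± 0.59, adjusted p = 0.00807). Krt17 measured 459, 295 and 254 CPM in VAS + H2O and 889, 1328 and 2626 CPM in IMQ + H2O (log2 fold change 2.27 ± 0.43, adjusted p = 0.0152), a call lost without VAS + H2O replicate 2. Groups were apart in all 4 genes, and IMQ + H2O replicate 3 was highest in each. Reads can be shared between Krt6a and Krt6b.

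Of 15 keratinocyte identity genes, 4 rose and 1 fell, against 13.4% and 8.09% over all genes, with a median of 0.30. Krt15, a keratin of basal cells and of the hair follicle bulge, measured 2204, 1970.0 and 2674 CPM in VAS + H2O and 476, 720.2 and 437 CPM in IMQ + H2O (log2 fold change -2.07 ± 0.22, adjusted p = 0.00535), so that each IMQ + H2O library held less than each VAS + H2O library by a wide gap. Krt14, the partner of Krt5 in basal cells, went the other way with 5893, 5090.0 and 6881 CPM in VAS + H2O and 9190.0, 9165 and 11770.0 CPM in IMQ + H2O (log2 fold change 0.75 ± 0.16, adjusted p = 0.0207). Krt1, a keratin of the spinous layer, measured 1240.0, 982 and 1371 CPM in VAS + H2O and 4124, 2529 and 3377 CPM in IMQ + H2O (log2 fold change 1.48 ± 0.21, adjusted p = 0.00808), while its partner Krt10 overlapped between groups at 25090.0, 23750.0 and 29200.0 CPM in VAS + H2O and 38350.0, 33490.0 and 24190.0 CPM in IMQ + H2O (adjusted p = 0.299). Krt5 and Krt2 did not pass the test either (adjusted p = 0.182 and 0.245). Dsg3, the desmosomal cadherin of lower layers, rose with a log2 fold change of 1.35 ± 0.19 and the cell cycle regulator Sfn with 0.83 ± 0.16. The calls of Krt14 and Sfn were lost without VAS + H2O replicate 1 or 2, leaving 2 genes rising in each case, and that of Krt14 also without IMQ + H2O replicate 3.

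Genes of terminal differentiation rose in 10 of 39 cases and fell in 1, against 13.4% and 8.09% over all genes. Their median was 0.27. Tgm1 and Tgm5, transglutaminases that cross-link the cornified envelope, were apart between groups. Tgm1 measured 174, 161 and 182 CPM in VAS + H2O and 392, 344 and 382 CPM in IMQ + H2O (log2 fold change 1.11 ± 0.09, adjusted p = 0.00311) and Tgm5 had a log2 fold change of 1.05 ± 0.11. Ivl, the envelope precursor involucrin, measured 159, 136 and 186 CPM in VAS + H2O and 400.5, 329 and 327 CPM in IMQ + H2O (log2 fold change 1.13 ± 0.14, adjusted p = 0.0069). Cnfn, another envelope protein, had 0.94 ± 0.12, and Elf3, an epithelial transcription factor, had 2.21 ± 0.23. Late products of the granular layer overlapped between groups. Lor, the main envelope protein loricrin, measured 898, 634 and 725 CPM in VAS + H2O and 842, 644 and 277 CPM in IMQ + H2O (adjusted p = 0.522), and Flg, the filament-aggregating filaggrin, measured 522, 562 and 429.7 CPM in VAS + H2O and 1026, 543 and 162 CPM in IMQ + H2O (adjusted p = 0.834). In both genes IMQ + H2O replicate 3 was the lowest of all libraries, and for Flg IMQ + H2O replicate 1 was the highest. When VAS + H2O replicate 2 was left out, 6 genes of the list rose.

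The envelope genes of the epidermal differentiation complex on chromosome 3 split by family. Of 34 Sprr and Lce genes tested, 17 rose, all of them DEGs, with a median of 1.60. Because families in the list had opposite signs, this median is not a typical change. It was 0.885 without IMQ + H2O replicate 3. Among the 30 genes with at least 10 counts in all 6 libraries it was 0.008, and 14 rose. The 17 genes that rose were all 13 Sprr1 and Sprr2 genes, which lie between 92215799 and 92485895, and 4 of the 5 Lce3 genes tested, between 92925287 and 92993426. Small proline-rich proteins bridge other envelope proteins, and the late cornified envelope proteins join last. All 14 Lce1 genes had negative log2 fold changes, from -1.29 to -0.12, the smallest adjusted p among them being 0.0843, and over the whole list 1 gene was called lower in DESeq2 and 1 had an unadjusted p under 0.05 with a lower value. Sprr2d measured 5.42, 4.75 and 4.06 CPM in VAS + H2O and 74.6, 49.0 and 167 CPM in IMQ + H2O (log2 fold change 4.35 ± 0.48, adjusted p = 0.00561). Sprr1b measured 46.9, 72.0 and 71.8 CPM in VAS + H2O and 430.3, 407 and 929 CPM in IMQ + H2O (log2 fold change 3.21 ± 0.37, adjusted p = 0.00606), and Sprr2h measured 7.24, 5.94 and 8.81 CPM in VAS + H2O and 67.0, 77.5 and 257 CPM in IMQ + H2O (log2 fold change 4.19 ± 0.58, adjusted p = 0.008). For these 3 genes even the lowest IMQ + H2O library lay above the highest VAS + H2O library several-fold. Sprr2a1 and Sprr2a2 had almost the same values and log2 fold changes, 3.72 and 3.71, and are near-identical copies, so their reads cannot be told apart. Lce1m measured 92.5, 75.1 and 105 CPM in VAS + H2O and 55.4, 42.6 and 13.8 CPM in IMQ + H2O and Lce1c measured 174, 159 and 151 CPM in VAS + H2O and 132, 110.3 and 31.9 CPM in IMQ + H2O, with replicate 3 of IMQ + H2O lowest in both. Leaving out VAS + H2O replicate 1 or 2, 11 or 10 genes of the list rose, and without IMQ + H2O replicate 3, 16 rose and 2 fell.

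Promoters of these genes are shown because the AP-1 letters stood only before members of this list that rose. The 250 bases before the RefSeq start were searched on both strands for TGANTCA, the core of a site for AP-1, a transcription factor that responds to stress and growth signals in keratinocytes. Of 32 Sprr and Lce promoters given, 9 held a match, which were 9 of the 16 genes that rose and none of the other 16, against 7.82% of 27025 genes with a promoter. The 9 were all Sprr genes, many of them copies of each other, so they are not independent. The same letters were searched in all lists except those of other cell types, and lists differed. In the list of terminal differentiation genes they stood before 1 of 8 genes that rose and 10 of 22 others. Among interferon-stimulated genes they stood before 4 of 8 that rose and 6 of 35 others. A match is a description and says nothing of binding. In 7 Sprr2 genes the match farthest upstream began 193 to 198 bases before the start. The promoters of Sprr2d (chr3:92338890-92339139, plus strand) and Sprr1b (chr3:92438780-92439029, minus strand), from RefSeq on GRCm38.p6, are written from 5′ to 3′ with the match in capitals.
Sprr2d: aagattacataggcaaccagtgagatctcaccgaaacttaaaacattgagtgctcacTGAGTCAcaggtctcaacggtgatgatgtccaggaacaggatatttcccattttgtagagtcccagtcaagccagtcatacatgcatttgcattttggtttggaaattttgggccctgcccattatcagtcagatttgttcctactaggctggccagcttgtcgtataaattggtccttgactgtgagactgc
Sprr1b: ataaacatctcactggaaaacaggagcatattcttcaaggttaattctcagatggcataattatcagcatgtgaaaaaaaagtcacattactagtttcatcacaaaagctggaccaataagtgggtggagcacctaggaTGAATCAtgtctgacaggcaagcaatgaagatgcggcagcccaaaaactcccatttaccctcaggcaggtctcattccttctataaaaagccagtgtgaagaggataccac
The capitals begin 193 bases before the start in Sprr2d and 111 bases before it in Sprr1b.

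Antimicrobial proteins and alarmins rose in 15 of 24 cases, 13 of them DEGs, with a median of 1.77, and 3 fell. The shares that rose and fell over all genes were 13.4% and 8.09%. Slpi, a secreted inhibitor of neutrophil elastase, measured 3.59, 3.48 and 3.29 CPM in VAS + H2O and 89.7, 67.4 and 113 CPM in IMQ + H2O (log2 fold change 4.70 ± 0.21, adjusted p = 0.00137). Lcn2, lipocalin 2, which binds bacterial siderophores, measured 2.32, 1.86 and 1.20 CPM in VAS + H2O and 59.9, 45.5 and 121 CPM in IMQ + H2O (log2 fold change 5.38 ± 0.47, adjusted p = 0.00311). Neither gene had an IMQ + H2O value near the VAS + H2O range. Pglyrp3 and Pglyrp4, which bind bacterial peptidoglycan, had log2 fold changes of 2.82 ± 0.17 and 1.48 ± 0.12. Chil1, a chitinase-like lectin, had 2.63 ± 0.16. Lpo, lactoperoxidase, measured 0.549, 1.07 and 0.658 CPM in VAS + H2O and 10.9, 8.47 and 9.05 CPM in IMQ + H2O (log2 fold change 3.65 ± 0.29, adjusted p = 0.00298). The IMQ + H2O libraries lay close together for these 4 genes and far apart for S100a8 and S100a9. Camp, the cathelicidin precursor, was at or below 0.184 CPM in every library and was not tested, and Lyz2, lysozyme of myeloid cells, overlapped at 0.443, 2.29 and 1.23 CPM in VAS + H2O and 2.10, 2.18 and 11.2 CPM in IMQ + H2O (adjusted p = 0.133).

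**Figure D2:**
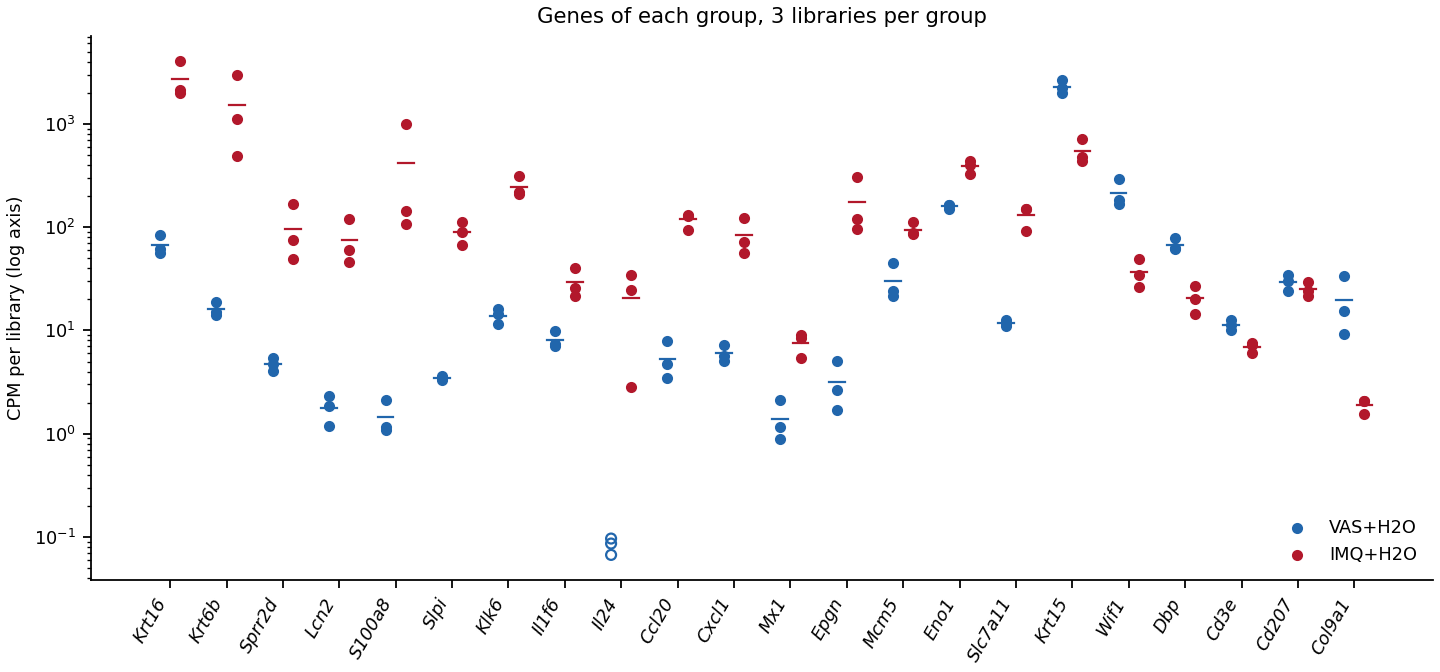
CPM per library, on a log axis, of genes named in the text and of Mcm5. The 3 VAS + H2O libraries are in blue and the 3 IMQ + H2O libraries in red. Short lines mark group means, and open circles, drawn at 3 counts, mark libraries without a count. The groups do not overlap for any gene shown except Cd207, the marker of Langerhans cells, and the spread within IMQ + H2O is widest for S100a8 and Il24.

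Of the IL-1 and IL-36 family, which passes danger signals from keratinocytes to immune cells, 5 of 24 members rose, with a median of 0.34. Over all genes 13.4% rose. Il1a measured 6.02, 5.12 and 6.12 CPM in VAS + H2O and 19.5, 24.2 and 34.8 CPM in IMQ + H2O (log2 fold change 2.18 ± 0.23, adjusted p = 0.00534). Il1f6, IL-36 alpha, measured 9.86, 7.13 and 7.46 CPM in VAS + H2O and 40.4, 26.0 and 21.4 CPM in IMQ + H2O (log2 fold change 1.84 ± 0.26, adjusted p = 0.00834), and Il1f9, IL-36 gamma, measured 58.0, 49.4 and 58.1 CPM in VAS + H2O and 144, 114 and 115 CPM in IMQ + H2O (log2 fold change 1.17 ± 0.12, adjusted p = 0.00534). All IMQ + H2O libraries were above all VAS + H2O libraries for these 3 ligands. Il1f5, the antagonist of the IL-36 receptor, had 0.81 ± 0.23 (adjusted p = 0.0462), and Casp4, an inflammatory caspase, had 1.30 ± 0.33 (adjusted p = 0.0345). Both of these calls were lost without any 1 VAS + H2O library, when 3 members rose. Il1b, which myeloid cells make most, measured 3.48, 5.88 and 3.03 CPM in VAS + H2O and 7.47, 14.5 and 196 CPM in IMQ + H2O (adjusted p = 0.0573), most of it in IMQ + H2O replicate 3. Il1rn, the IL-1 receptor antagonist, measured 51.6, 49.7 and 59.0 CPM in VAS + H2O and 72.9, 61.8 and 66.4 CPM in IMQ + H2O (adjusted p = 0.0635), and Il33, an alarmin of the nucleus, had an adjusted p of 0.0847.

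Of the cytokines that define the model, those of T cells were at or near the floor in this tissue. Il17a and Il22 had no count in any of the 6 libraries, which allows up to 0.0671 to 0.0990 CPM, and Il17f had 3 counts in 1 VAS + H2O library and none elsewhere. Il23a, the subunit specific to IL-23, measured 0.190, 0 and 0.257 CPM in VAS + H2O and 1.15, 0.447 and 1.79 CPM in IMQ + H2O (log2 fold change 2.86 ± 0.88, adjusted p = 0.0588). Its groups did not overlap, but the test did not pass. Tlr7, the receptor of imiquimod, had 0, 6 and 3 counts in VAS + H2O and 5, 9 and 15 in IMQ + H2O and was not tested.

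Of 22 members tested of the IL-17, IL-23, IL-22 and IL-20 axis, 6 rose and 3 fell, with a median of 0.16. Over all genes tested, 13.4% rose and 8.09% fell. The members that rose include ligands made by epithelium. Il19, a cytokine of the IL-20 family, had 3 counts in all of VAS + H2O and 724 in IMQ + H2O, 234-fold higher with an exact 95% counting interval of 79.8 to 1140. Il17c, the IL-17 made by keratinocytes, measured 0.169, 0.0610 and 0 CPM in VAS + H2O and 1.57, 0.763 and 1.36 CPM in IMQ + H2O (log2 fold change 3.84 ± 0.77, adjusted p = 0.0175). Zc3h12a, the RNase Regnase-1 that degrades cytokine transcripts, measured 50.4, 96.6 and 98.4 CPM in VAS + H2O and 266, 256 and 304 CPM in IMQ + H2O (log2 fold change 1.75 ± 0.25, adjusted p = 0.00841). Values of Il17c and Il19 were low but apart between groups. Receptors went both ways. Il17rc and Il17re, receptor subunits of the IL-17 family, rose by 0.49 and 0.51. Il20ra, a subunit of the receptor for IL-19, IL-20 and IL-24, measured 50.7, 74.5 and 81.3 CPM in VAS + H2O and 43.7, 37.8 and 31.4 CPM in IMQ + H2O (log2 fold change -0.87 ± 0.20, adjusted p = 0.0254), and Il17rb, the receptor subunit for IL-25, had -0.80 ± 0.17. These calls were lost without VAS + H2O replicate 2 or 3, when 0 members fell in edgeR, against 4 in DESeq2 with all libraries and 4 with an unadjusted p under 0.05. Il17ra, the shared IL-17 receptor, measured 35.8, 35.9 and 38.8 CPM in VAS + H2O and 38.3, 38.7 and 37.6 CPM in IMQ + H2O (adjusted p = 0.677) and its adaptor Traf3ip2 had an adjusted p of 0.974. In the fit without VAS + H2O replicate 2, 3 members rose, the call of Il17c being lost. Of the 22 members, 4 had reached the count minimum in libraries of only 1 group. With at least 10 counts required in all 6 libraries, 16 were tested, 3 rose and 3 fell, with a median of -0.095.

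Chemokines rose in 10 of 22 cases, 9 of them DEGs, with a median of 1.83. Of the 22, 4 had reached the count minimum in libraries of only 1 group. With at least 10 counts required in all 6 libraries, 15 were tested, 6 rose and 1 fell, with a median of 0.812. Ccl20, which attracts cells with the receptor CCR6, such as IL-17-producing T cells, measured 3.46, 4.69 and 7.84 CPM in VAS + H2O and 129, 94.5 and 132 CPM in IMQ + H2O (log2 fold change 4.48 ± 0.33, adjusted p = 0.00201). Cxcl1, a ligand of the neutrophil receptor CXCR2, measured 5.07, 7.25 and 5.66 CPM in VAS + H2O and 55.6, 72.1 and 122 CPM in IMQ + H2O (log2 fold change 3.80 ± 0.33, adjusted p = 0.00311). Ccl2, which attracts monocytes, measured 0.148, 0.518 and 0.143 CPM in VAS + H2O and 7.68, 8.73 and 4.68 CPM in IMQ + H2O (log2 fold change 4.73 ± 0.54, adjusted p = 0.00588). Each of the 3 rose in every IMQ + H2O library to more than the highest VAS + H2O value. Cxcl3, another CXCR2 ligand, had 2 counts in all of VAS + H2O and 43, 297 and 3121 counts in IMQ + H2O, 1680-fold higher with a counting interval of 465 to 13900 that leaves out the spread between libraries. Ccl22, Cxcl16 and Ccl1 had log2 fold changes of 1.95 ± 0.38, 0.99 ± 0.17 and 5.81 ± 0.88, the last from 3 counts in VAS + H2O. Cxcl2 measured 4.12, 8.02 and 5.98 CPM in VAS + H2O and 12.8, 17.0 and 182 CPM in IMQ + H2O (adjusted p = 0.0554), again highest by far in replicate 3. Ccl27a, which is made by resting keratinocytes, overlapped at 16.1, 10.00 and 12.2 CPM in VAS + H2O and 7.65, 12.3 and 10.3 CPM in IMQ + H2O (adjusted p = 0.342). With VAS + H2O replicate 1 or 2 left out, 6 chemokines rose and Ccl22 lost its call, and Cxcl3 lost its call without any 1 VAS + H2O library.

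The promoters of the CXCR2 ligands that rose are shown for their kappaB sites, the sequence bound by NF-kappaB. GGGANTTTC or GGGANTTCC, on either strand, stood in the 250 bases before the start of 5 of 19 chemokine genes with a promoter, against 2.7% of the 27025 genes. The 5 were 4 of the 7 that rose and 1 of the other 12. Both promoters lie on the plus strand of chromosome 5, Cxcl1 at chr5:90890995-90891244 and Cxcl3 at chr5:90785851-90786100 (RefSeq, GRCm38.p6), and the match is in capitals.
Cxcl1: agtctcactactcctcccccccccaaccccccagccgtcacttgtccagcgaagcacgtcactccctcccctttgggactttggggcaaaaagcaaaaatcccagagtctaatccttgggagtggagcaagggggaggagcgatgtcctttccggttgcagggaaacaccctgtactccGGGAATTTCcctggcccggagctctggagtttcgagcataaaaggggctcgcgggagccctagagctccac
Cxcl3: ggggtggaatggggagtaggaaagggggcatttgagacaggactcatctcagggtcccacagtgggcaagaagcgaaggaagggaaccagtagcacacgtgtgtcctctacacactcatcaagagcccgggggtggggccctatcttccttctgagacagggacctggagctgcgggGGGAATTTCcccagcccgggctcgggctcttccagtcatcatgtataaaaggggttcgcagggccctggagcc
The 9 letters are the same in both genes and begin 71 and 73 bases before the start.

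Of 36 members of the NF-kappaB and TNF pathway, 17 rose, 4 of them DEGs, and 1 fell, with a median of 0.51. The shares over all genes were 13.4% and 8.09%. Bcl3, an atypical inhibitor of NF-kappaB that modifies its target choice, measured 2.81, 5.00 and 7.15 CPM in VAS + H2O and 58.5, 65.8 and 82.0 CPM in IMQ + H2O (log2 fold change 3.79 ± 0.34, adjusted p = 0.00333). Ptges, an enzyme of prostaglandin E2 synthesis, measured 100.1, 106 and 133 CPM in VAS + H2O and 449.8, 451 and 475 CPM in IMQ + H2O (log2 fold change 2.02 ± 0.12, adjusted p = 0.00161). The precursors Nfkb1 and Nfkb2, the receptor Tnfrsf1a and the target Sod2 rose with log2 fold changes of 0.62 ± 0.087, 0.73 ± 0.11, 0.54 ± 0.078 and 0.63 ± 0.10. The groups did not overlap for any of these 6 genes, which was so for 44.95% of all genes tested. Tnf itself measured 9.46, 6.43 and 5.83 CPM in VAS + H2O and 11.9, 9.84 and 13.2 CPM in IMQ + H2O (adjusted p = 0.0689) and its inhibitor gene Nfkbia 231, 426 and 480.0 CPM in VAS + H2O and 699, 534 and 497 CPM in IMQ + H2O (adjusted p = 0.157). Between 7 and 11 members rose without VAS + H2O replicate 1 or 2 or any IMQ + H2O library.

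Of 30 JAK-STAT and SOCS genes, 5 rose and 3 fell, with a median of 0.10, shares close to the 13.4% and 8.09% over all genes, and DESeq2 called 7 and 5. Stat3, the transcription factor downstream of IL-22 and IL-6, measured 199, 218 and 206 CPM in VAS + H2O and 341, 334 and 406 CPM in IMQ + H2O (log2 fold change 0.80 ± 0.10, adjusted p = 0.00692), and Osmr, the receptor of oncostatin M, had 0.94 ± 0.20. Lifr, the receptor of leukaemia inhibitory factor, measured 75.8, 95.9 and 91.7 CPM in VAS + H2O and 34.5, 36.4 and 27.6 CPM in IMQ + H2O (log2 fold change -1.42 ± 0.14, adjusted p = 0.00455), so that 2 related receptor subunits moved in opposite directions. Socs5 and Socs6 rose by less than 1 on the log2 scale and Pias3, an inhibitor of STAT3, fell (-0.54). Il6 and Socs3 did not pass (adjusted p = 0.0592 and 0.349). Except for Stat3 and Lifr, these calls were lost without VAS + H2O replicate 1 or replicate 2, when 1 or 2 members rose and 1 fell, and without IMQ + H2O replicate 2 or 3, 3 rose. Of 16 Toll-like receptor genes and adaptors tested, 3 rose and 1 fell, against 13.4% and 8.09% over all genes. Tlr5, the flagellin receptor, measured 12.8, 13.1 and 12.5 CPM in VAS + H2O and 4.09, 4.31 and 4.47 CPM in IMQ + H2O (log2 fold change -1.57 ± 0.13, adjusted p = 0.00311) with tight replicates. Myd88, the adaptor that TLR7 and IL-1 receptors share, measured 42.9, 42.7 and 54.6 CPM in VAS + H2O and 90.7, 91.2 and 106 CPM in IMQ + H2O (log2 fold change 1.03 ± 0.12, adjusted p = 0.00635). Irak3 and Irak4, kinases of the same pathway, had 0.81 ± 0.15 and 0.48 ± 0.11, and without VAS + H2O replicate 1 these 2 calls were lost, leaving 1 that rose. The count of 1 that fell, Tlr5, was the same without any 1 library.

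Interferon-stimulated genes rose in 10 of 56 cases, 8 of them DEGs, against 13.4% that rose over all genes, with a median of 0.78. Mx1, an antiviral GTPase, measured 2.11, 0.884 and 1.17 CPM in VAS + H2O and 8.48, 5.37 and 9.01 CPM in IMQ + H2O (log2 fold change 2.44 ± 0.37, adjusted p = 0.00951). Ifitm3, which blocks viral entry, measured 123.4, 63.0 and 96.6 CPM in VAS + H2O and 354, 304 and 435 CPM in IMQ + H2O (log2 fold change 1.95 ± 0.26, adjusted p = 0.00721). Zbp1, a sensor of Z-form nucleic acid, Psmb8, a subunit of the immunoproteasome, Ifi35 and Rsad2, the antiviral enzyme viperin, had log2 fold changes of 2.65 ± 0.56, 1.13 ± 0.21, 0.98 ± 0.19 and 1.93 ± 0.45. The spread within VAS + H2O was the feature of the rest. Isg15, the ubiquitin-like modifier, measured 27.1, 1.55 and 13.2 CPM in VAS + H2O and 31.0, 29.7 and 23.2 CPM in IMQ + H2O (adjusted p = 0.393), and Ifit1 measured 6.95, 0.823 and 2.52 CPM in VAS + H2O and 12.2, 10.3 and 11.2 CPM in IMQ + H2O (adjusted p = 0.103). On average over the list, VAS + H2O replicate 2 lay 0.71 below the mean of its group in log2 CPM and the other VAS + H2O libraries 0.30 and 0.40 above it, while IMQ + H2O libraries lay 0.82 to 1.10 above it. The number that rose was 19 in DESeq2, 4 without IMQ + H2O replicate 3, 5 without IMQ + H2O replicate 1 and 6 without VAS + H2O replicate 1, and Rsad2 lost its call in each of the last 3 fits, Zbp1 without IMQ + H2O replicate 3 or VAS + H2O replicate 1.

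The interferon-stimulated response element was searched as GAAANNGAA on both strands. It stood before 21 of the 43 interferon-stimulated genes with a promoter, against 8.18% of the 27025 genes, in 4 of the 8 that rose and 17 of the other 35, so that holding it did not separate members that rose from those that did not pass. Oas1a, a sensor enzyme for double-stranded RNA (log2 fold change 2.61 ± 0.66), and Rsad2 are shown with the element in capitals, both on the minus strand, Rsad2 at chr12:26456453-26456702 and Oas1a at chr5:120907526-120907775 (RefSeq, GRCm38.p6). Oas1a has close copies, so its count is uncertain.
Rsad2: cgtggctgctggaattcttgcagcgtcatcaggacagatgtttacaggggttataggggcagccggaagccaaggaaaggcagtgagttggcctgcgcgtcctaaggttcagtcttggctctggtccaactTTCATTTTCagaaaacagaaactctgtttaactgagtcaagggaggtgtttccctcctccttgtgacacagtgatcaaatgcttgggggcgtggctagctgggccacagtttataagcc
Oas1a: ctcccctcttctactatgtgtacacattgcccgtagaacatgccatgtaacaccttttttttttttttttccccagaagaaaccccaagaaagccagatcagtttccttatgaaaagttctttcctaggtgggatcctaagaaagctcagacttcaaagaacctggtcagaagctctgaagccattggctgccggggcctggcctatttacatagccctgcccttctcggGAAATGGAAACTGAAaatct
In Oas1a 2 overlapping matches run as a single stretch, beginning 20 and 14 bases before the start, and in Rsad2 the match begins 119 bases before it and reads on the other strand.

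**Figure D3:**
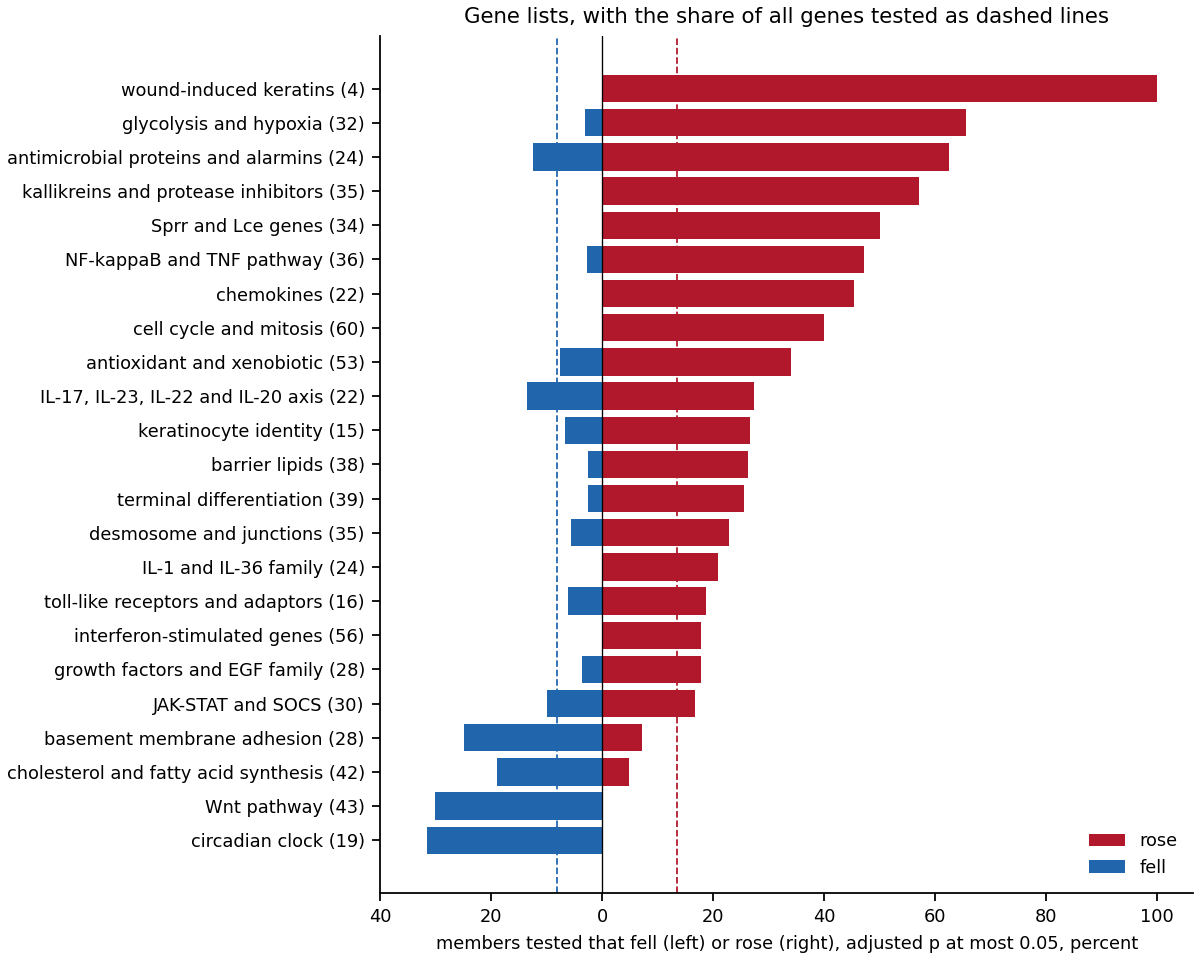
For each gene list, with the number of members tested in brackets, the percent that rose (red, right) and fell (blue, left) at an adjusted p of at most 0.05. Dashed lines mark the 13.4% and 8.09% over all genes. Among the lists drawn, which leave out markers of other cell types, the bars of wound-induced (stress) keratins, glycolysis and antimicrobial proteins reach farthest to the right and those of the clock and the Wnt pathway to the left.

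Of 28 growth factors and their receptors, EGF family included, 5 rose and 1 fell, with a median of 0.22. Over all genes 13.4% rose and 8.09% fell, so the list as a whole did not stand out. Among its members that rose, 3 ligands changed most. Epgn, epigen, a ligand of the EGF receptor, measured 1.71, 2.62 and 5.09 CPM in VAS + H2O and 95.5, 121 and 307 CPM in IMQ + H2O (log2 fold change 5.81 ± 0.64, adjusted p = 0.00558). Areg, amphiregulin, measured 0.95, 2.35 and 3 CPM in VAS + H2O and 18.9, 36.0 and 103 CPM in IMQ + H2O (log2 fold change 4.67 ± 0.75, adjusted p = 0.0106), and Nrg1, neuregulin 1, measured 1.37, 2.04 and 2.37 CPM in VAS + H2O and 9.92, 17.5 and 48.2 CPM in IMQ + H2O (log2 fold change 3.72 ± 0.62, adjusted p = 0.0112). The 3 ligands were apart between groups and highest in IMQ + H2O replicate 3. Vegfa, the main angiogenic factor, had 1.23 ± 0.18 and Met, the receptor of hepatocyte growth factor, 0.74 ± 0.16, the latter call being lost without VAS + H2O replicate 1 or 2 or IMQ + H2O replicate 3. Fgfr2, the receptor of keratinocyte growth factor, measured 359, 375 and 383 CPM in VAS + H2O and 280.2, 262 and 206 CPM in IMQ + H2O (log2 fold change -0.58 ± 0.12, adjusted p = 0.0211), a call lost without VAS + H2O replicate 2 or 3. Egfr, the receptor of these ligands, measured 162, 171 and 178 CPM in VAS + H2O and 192, 202 and 213 CPM in IMQ + H2O (adjusted p = 0.0649), and the ligands Hbegf and Tgfa had adjusted p-values of 0.0516 and 0.488.

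Cell cycle genes rose in 24 of 60 cases, 20 of them DEGs, with a median of 0.99. Rrm2 and Rrm1, the subunits of ribonucleotide reductase, measured 14.5, 14.6 and 24.8 CPM in VAS + H2O and 57.3, 64.8 and 99.9 CPM in IMQ + H2O (log2 fold change 2.04 ± 0.29, adjusted p = 0.0084) and 65, 63.3 and 91.0 CPM in VAS + H2O and 146, 149 and 173 CPM in IMQ + H2O (log2 fold change 1.09 ± 0.16, adjusted p = 0.00841). Mcm7 and Mcm4, parts of the replicative helicase, had log2 fold changes of 1.07 ± 0.15 and 0.99 ± 0.15, and Ccne1, the cyclin of entry into S phase, 2.04 ± 0.32. Among members that did not pass, Mki67, a marker of dividing cells, measured 85.8, 212 and 250.5 CPM in VAS + H2O and 304, 339 and 394 CPM in IMQ + H2O (log2 fold change 0.92 ± 0.36, adjusted p = 0.112), Cdk1, the mitotic kinase, measured 7.37, 16.1 and 21.7 CPM in VAS + H2O and 26.1, 32.6 and 54.0 CPM in IMQ + H2O (adjusted p = 0.0665), and Ccnb1 measured 8.06, 16.9 and 23.1 CPM in VAS + H2O and 22.3, 27.7 and 36.4 CPM in IMQ + H2O (adjusted p = 0.144). VAS + H2O replicate 1 was lowest and replicate 3 highest of its group in each. Without both VAS + H2O replicate 2 and IMQ + H2O replicate 3, 4 members rose. Without VAS + H2O replicate 2 or IMQ + H2O replicate 3, 13 or 15 rose, and DESeq2 called 38. Ccnd1, the cyclin of G1, had an adjusted p of 0.36. TTTGAA or TTCGAA, the cell cycle genes homology region, stood before 15 of the 49 members with a promoter, against 19.6% of the 27025 genes, and before 5 of the 20 that rose.

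Kallikreins and protease inhibitors, which time the shedding of the outer layer, rose in 20 of 35 cases, 15 of them DEGs, with a median of 0.99. Klk6 measured 16, 11.5 and 14.3 CPM in VAS + H2O and 218, 207 and 309 CPM in IMQ + H2O (log2 fold change 4.13 ± 0.21, adjusted p = 0.0014), and 8 of the 10 kallikrein genes tested rose. Prss27, a serine protease of epithelia, measured 6.97, 6.04 and 4.49 CPM in VAS + H2O and 51.5, 38.9 and 69.5 CPM in IMQ + H2O (log2 fold change 3.19 ± 0.26, adjusted p = 0.00311). Serpinb3b and Serpinb6c, inhibitors of the serpin family, had log2 fold changes of 1.27 ± 0.11 and 3.45 ± 0.37, and the cysteine protease inhibitor Stfa3 had 5.19 ± 0.43. No IMQ + H2O library of these genes lay within the VAS + H2O range. Serpinb3b has close copies among which reads may be shared. Klk5, which activates other kallikreins, measured 197, 149 and 195 CPM in VAS + H2O and 262, 247 and 187 CPM in IMQ + H2O (adjusted p = 0.154), and Spink5, the inhibitor LEKTI, measured 736, 618 and 656 CPM in VAS + H2O and 809, 862 and 621 CPM in IMQ + H2O (adjusted p = 0.371), both with overlap.

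Glycolysis and hypoxia genes rose in 21 of 32 cases, 14 of them DEGs, with a median of 0.97, and 1 fell. Eno1 measured 162, 151 and 164 CPM in VAS + H2O and 398, 329.5 and 435 CPM in IMQ + H2O (log2 fold change 1.28 ± 0.12, adjusted p = 0.00339). Ldha, lactate dehydrogenase A, measured 238, 219.6 and 257 CPM in VAS + H2O and 562, 466 and 626 CPM in IMQ + H2O (log2 fold change 1.21 ± 0.13, adjusted p = 0.00535). Pgk1, Pgam1, Pkm and Tpi1, further enzymes of glycolysis, had log2 fold changes of 1.5 ± 0.16, 1.33 ± 0.14, 1.12 ± 0.12 and 0.98 ± 0.11. Every IMQ + H2O library exceeded every VAS + H2O library for all 6, and between 17 and 21 members rose whichever library was left out. Pfkp, a phosphofructokinase, did not pass (adjusted p = 0.358).

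Antioxidant and xenobiotic genes rose in 18 of 53 cases, against 13.4% over all genes, with a median of 0.27. In all, 4 fell, a share near the 8.09% over all genes. Slc7a11, the cystine transporter, measured 11.1, 11.8 and 12.7 CPM in VAS + H2O and 149, 91.6 and 150.0 CPM in IMQ + H2O (log2 fold change 3.46 ± 0.21, adjusted p = 0.00161). Gsta4, a glutathione transferase for lipid aldehydes, measured 6.52, 7.04 and 11.9 CPM in VAS + H2O and 118, 165 and 377 CPM in IMQ + H2O (log2 fold change 4.70 ± 0.52, adjusted p = 0.00561), and Nqo1, a quinone reductase, measured 11.1, 9.42 and 11.5 CPM in VAS + H2O and 50.7, 41.8 and 41.2 CPM in IMQ + H2O (log2 fold change 2.06 ± 0.13, adjusted p = 0.00162). Nfe2l2, the transcription factor NRF2 that controls such genes, had 0.94 ± 0.11, Txnrd1, thioredoxin reductase, 0.73 ± 0.078 and Aox4, an aldehyde oxidase of skin, 2.31 ± 0.13. Hmox1, haem oxygenase 1, overlapped at 36.5, 33.2 and 36.9 CPM in VAS + H2O and 48.3, 38.4 and 27.9 CPM in IMQ + H2O (adjusted p = 0.733). Cyp1a1, the classical target of the aryl hydrocarbon receptor, measured 7.92, 6.95 and 4.38 CPM in VAS + H2O and 5.20, 7.39 and 7.19 CPM in IMQ + H2O (adjusted p = 0.926). Without both VAS + H2O replicate 2 and IMQ + H2O replicate 3, 11 members rose, and without VAS + H2O replicate 1 or 2, 2 fell, against 8 in DESeq2.

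Lipid genes went different ways. Of 38 genes for the lipids of the permeability barrier, 10 rose and 1 fell, against 13.4% and 8.09% over all genes. Their median was 0.13. Fabp5, the epidermal fatty acid-binding protein, measured 523, 500.5 and 491 CPM in VAS + H2O and 1786, 1359 and 2219 CPM in IMQ + H2O (log2 fold change 1.82 ± 0.18, adjusted p = 0.00445). Cers3, the synthase of very long ceramides, measured 83.5, 75.3 and 83.7 CPM in VAS + H2O and 167, 153 and 176 CPM in IMQ + H2O (log2 fold change 1.03 ± 0.088, adjusted p = 0.00311). Sult2b1, Elovl7 and Ugcg, which act on cholesterol, fatty acids and ceramide, had 0.81 ± 0.10, 0.73 ± 0.10 and 0.50 ± 0.074, and Cyp4f17 fell (-0.74). Of 42 genes for cholesterol and fatty acid synthesis, 2 rose and 8 fell, against the same 13.4% and 8.09%. Their median was -0.04. Scd2, a stearoyl-CoA desaturase, measured 333, 353 and 318 CPM in VAS + H2O and 219.5, 210.0 and 188 CPM in IMQ + H2O (log2 fold change -0.70 ± 0.09, adjusted p = 0.00714), and Srebf1, the transcription factor of lipid synthesis, measured 233, 228 and 196 CPM in VAS + H2O and 134, 136 and 115 CPM in IMQ + H2O (log2 fold change -0.77 ± 0.11, adjusted p = 0.00803). Mogat1, Elovl5 and Msmo1, enzymes of glyceride, fatty acid and sterol synthesis, fell (-2.27, -0.84 and -0.73), and Dgat2l6, an acyltransferase of sebaceous glands, rose by 2.21. Fasn, the fatty acid synthase, overlapped (adjusted p = 0.498). In fits without VAS + H2O replicate 1 or 2, 6 barrier genes rose, and without IMQ + H2O replicate 3, 5 synthesis genes fell and 1 rose.

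**Figure D4:**
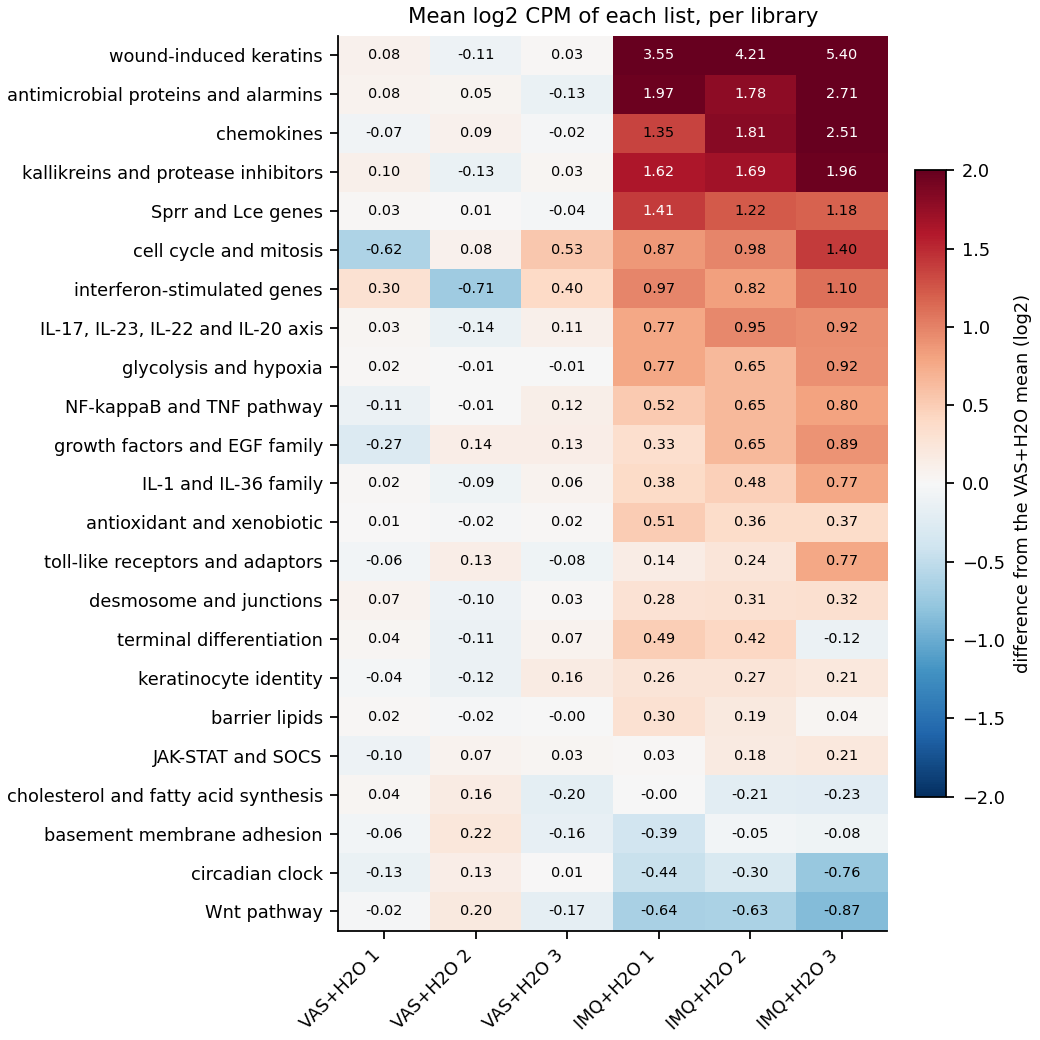
Mean log2 CPM of each gene list in each library, as the difference from the mean of the 3 VAS + H2O libraries, with colours ending at 2 and the values printed. The wound-induced (stress) keratins reach 3.55, 4.21 and 5.40 in the IMQ + H2O libraries, and the cell cycle and interferon rows show the widest spread within VAS + H2O, from -0.62 to 0.53 and from -0.71 to 0.40.

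Junction genes rose in 8 of 35 cases and fell in 2, against 13.4% and 8.09% over all genes, with a median of 0.11. DESeq2 called 10 higher and 6 lower. Gjb2 and Gjb6, the connexins 26 and 30 of gap junctions, stood out. Gjb2 measured 39.9, 52.7 and 38.8 CPM in VAS + H2O and 300.3, 318 and 678 CPM in IMQ + H2O (log2 fold change 3.30 ± 0.35, adjusted p = 0.00535), and Gjb6 measured 8.36, 7.65 and 8.04 CPM in VAS + H2O and 27.2, 27.7 and 52.4 CPM in IMQ + H2O (log2 fold change 2.16 ± 0.27, adjusted p = 0.00691). Cdh3, P-cadherin of basal cells, measured 79.1, 74.7 and 78.7 CPM in VAS + H2O and 172, 190.3 and 252 CPM in IMQ + H2O (log2 fold change 1.4 ± 0.15, adjusted p = 0.00534), while Cdh1, E-cadherin, overlapped at 724, 728 and 804 CPM in VAS + H2O and 701, 792 and 786 CPM in IMQ + H2O (adjusted p = 0.925). Tjp1 and F11r, of tight junctions, rose by 0.40 and 0.49, calls lost without VAS + H2O replicate 1 or 2, when 4 or 5 members rose.

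In the basement membrane list, 2 of 28 members rose and 7 fell, against 13.4% and 8.09% over all genes. The median was -0.12. Itgb6, the subunit of an integrin that activates TGF-beta, measured 3.76, 5.12 and 4.89 CPM in VAS + H2O and 12.5, 15.8 and 19.2 CPM in IMQ + H2O (log2 fold change 1.79 ± 0.21, adjusted p = 0.00613). Col7a1, the collagen of anchoring fibrils, measured 299, 288 and 296 CPM in VAS + H2O and 162, 180.3 and 138 CPM in IMQ + H2O (log2 fold change -0.88 ± 0.11, adjusted p = 0.0069), and Lamb3, a chain of laminin 332, had -0.64 ± 0.12. Dst, which holds the plakin of hemidesmosomes, measured 1608, 1836 and 2097 CPM in VAS + H2O and 901, 1189 and 768 CPM in IMQ + H2O (log2 fold change -0.95 ± 0.18, adjusted p = 0.0156), a call lost without IMQ + H2O replicate 1. Itga6 and Itgb4, the integrin of hemidesmosomes, did not pass (adjusted p = 0.325 and 0.591). Nid2 and Col4a2 fell too, both highest in VAS + H2O replicate 2. Their calls and others were lost when any IMQ + H2O library was left out, with 2, 4 or 3 members falling without replicate 1, 2 or 3.

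Wnt pathway genes fell in 13 of 43 cases, 10 of them DEGs, against 8.09% over all genes, with a median of -0.51. In edgeR 0 rose, also at an unadjusted p under 0.05 and in DESeq2. Wif1, a secreted Wnt inhibitor, measured 184, 292 and 169 CPM in VAS + H2O and 49.4, 34.6 and 26.6 CPM in IMQ + H2O (log2 fold change -2.55 ± 0.30, adjusted p = 0.00606). Wnt3, a ligand, measured 40.2, 40.8 and 54.3 CPM in VAS + H2O and 21.2, 26.0 and 19.5 CPM in IMQ + H2O (log2 fold change -1.02 ± 0.17, adjusted p = 0.0106), and Lgr6, a receptor of R-spondins on epidermal stem cells, measured 111, 104 and 109 CPM in VAS + H2O and 64.7, 53.9 and 37.4 CPM in IMQ + H2O (log2 fold change -1.05 ± 0.19, adjusted p = 0.0132). All IMQ + H2O values of the 3 lay below all VAS + H2O values. Rspo3, an R-spondin, Fzd9, a frizzled receptor, and Notum, which inactivates Wnt proteins, had log2 fold changes of -2.86, -2.31 and -2.12, so inhibitors, ligands and receptors were among those that fell. Ctnnb1, beta-catenin, measured 464, 382 and 457 CPM in VAS + H2O and 448, 368 and 436 CPM in IMQ + H2O (adjusted p = 0.756), and Wnt4 had an adjusted p of 0.608. Leaving out VAS + H2O replicate 2 or IMQ + H2O replicate 1, 8 members fell. The dermal markers were higher in VAS + H2O replicate 2 as well, and their part in these values was not tested.

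Of 19 clock genes, 6 fell, against 8.09% over all genes, with a median of -0.54, and 0 rose in edgeR. In DESeq2 10 were lower and 1 higher, and at an unadjusted p under 0.05 10 and 2. Dbp, an output of the clock, measured 62.2, 78.8 and 61.5 CPM in VAS + H2O and 19.9, 27.0 and 14.4 CPM in IMQ + H2O (log2 fold change -1.72 ± 0.23, adjusted p = 0.00778). Nr1d1 and Nr1d2, the REV-ERB repressors, measured 299.7, 373 and 298 CPM in VAS + H2O and 193, 179.9 and 128 CPM in IMQ + H2O (log2 fold change -0.96 ± 0.17, adjusted p = 0.0138) and 138, 154 and 164 CPM in VAS + H2O and 98.2, 99.6 and 75.5 CPM in IMQ + H2O (log2 fold change -0.74 ± 0.13, adjusted p = 0.0124). Tef, an activator related to Dbp, and the repressors Bhlhe41 and Per2 fell with log2 fold changes of -0.80, -1.31 and -0.72. IMQ + H2O replicate 3 was lowest for all 6. Arntl, the activator BMAL1, measured 45.9, 49.1 and 52.5 CPM in VAS + H2O and 46.0, 50.1 and 47.4 CPM in IMQ + H2O (adjusted p = 0.782) and Clock had an adjusted p of 0.564. The calls of Bhlhe41 and Per2 were lost without VAS + H2O replicate 1 or 2, among others.

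Resident immune cells were followed by their markers, and in bulk samples fewer cells of a type and less RNA per cell cannot be told apart. Of 14 Langerhans cell markers, 1 rose and 1 fell, against 13.4% and 8.09% over all genes, with a median of 0.03. Cd207, langerin, measured 24.0, 30.1 and 34.2 CPM in VAS + H2O and 21.4, 29.3 and 24.3 CPM in IMQ + H2O (adjusted p = 0.359), and the sum of the list was 939 to 1029 CPM in VAS + H2O and 1118 to 1243 CPM in IMQ + H2O. Cd24a, an adhesion molecule that keratinocytes also express, rose by 0.78 and Tnfrsf11a, the receptor RANK, fell (-0.89). Of 12 genes of MHC class II presentation, 0 were called in edgeR, against 1 up and 1 down in DESeq2 and 2 up and 1 down at an unadjusted p under 0.05. Markers of dendritic epidermal T cells, the gamma delta T cells of mouse epidermis, fell in 6 of 23 cases, with a median of -0.58, and 1 rose. Cd3e measured 12.5, 10.2 and 11.2 CPM in VAS + H2O and 6.01, 7.63 and 7.29 CPM in IMQ + H2O (log2 fold change -0.70 ± 0.16, adjusted p = 0.024), Cd3g measured 16.2, 14.8 and 14.2 CPM in VAS + H2O and 6.84, 10.7 and 8.49 CPM in IMQ + H2O (log2 fold change -0.79 ± 0.18, adjusted p = 0.0259) and Tcrg-C1, a gamma chain constant region, measured 9.79, 9.30 and 9.35 CPM in VAS + H2O and 4.12, 6.89 and 5.50 CPM in IMQ + H2O (log2 fold change -0.78 ± 0.20, adjusted p = 0.0365). Values of the groups were close but without overlap. Cd247 and Ctsw had -0.90 ± 0.18 and -1.05 ± 0.26. Trdc, the delta chain constant region, measured 20.01, 22.3 and 17.4 CPM in VAS + H2O and 11.8, 15.5 and 15.1 CPM in IMQ + H2O (adjusted p = 0.0613). Thy1, the member that rose (1.27), is expressed by fibroblasts too, and the sum of the list was 195 to 203 CPM in VAS + H2O and 206 to 239.6 CPM in IMQ + H2O. The number that fell was 12 in DESeq2 and 0 without VAS + H2O replicate 1 or IMQ + H2O replicate 1, with 1 without VAS + H2O replicate 2 and 3 without VAS + H2O replicate 3 or IMQ + H2O replicate 3.

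Of 23 neutrophil markers, 7 were tested and 4 rose, Cxcr2, S100a8, S100a9 and Hdc. Cxcr2, the receptor of CXCL1, measured 11, 10.7 and 12.6 CPM in VAS + H2O and 49.8, 51.0 and 81.9 CPM in IMQ + H2O (log2 fold change 2.42 ± 0.22, adjusted p = 0.00333), so it was present without imiquimod as well. Calprotectin and Cxcr2 are expressed by keratinocytes too. Ly6g, the defining surface marker, had 22 counts in IMQ + H2O replicate 3 and none in the other 5 libraries. Csf3r measured 0, 0.0910 and 0.0860 CPM in VAS + H2O and 0.175, 0.868 and 38.6 CPM in IMQ + H2O, Retnlg 0, 0 and 0 CPM in VAS + H2O and 0, 0.394 and 15.6 CPM in IMQ + H2O and Mmp8 0.169, 0.0610 and 0 CPM in VAS + H2O and 0, 0.237 and 9.38 CPM in IMQ + H2O. Among the 16 markers below the count minimum, 10 had no count in any VAS + H2O library and 13 were highest in IMQ + H2O replicate 3. The summed level of all 23 was 85.8 to 99.8 CPM in VAS + H2O and 327.9, 435.5 and 2441 CPM in IMQ + H2O. Of the last sum, S100a8 held 998 and S100a9 1069 CPM, so it is not a measure of neutrophils alone. Without IMQ + H2O replicate 3, the log2 fold change of S100a8 was 6.35 (adjusted p = 0.00153) and that of S100a9 was 5.28 (adjusted p = 0.00193).

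Of 13 monocyte and macrophage markers tested, 4 rose and 1 fell, against 13.4% and 8.09% over all genes. Their median was 0.63. Ly6c2, a marker of inflammatory monocytes that other leukocytes share, had no count in VAS + H2O and 226 in IMQ + H2O, at least 73.1-fold higher. F13a1, a marker of dermal macrophages, measured 4.62, 5.24 and 3.12 CPM in VAS + H2O and 1.01, 0.947 and 1.46 CPM in IMQ + H2O (log2 fold change -1.92 ± 0.29, adjusted p = 0.00917). C1qb and Cd68 had 2.19 ± 0.54 and 0.63 ± 0.17, and Csf1r overlapped at 38.8, 29.9 and 28.4 CPM in VAS + H2O and 25.6, 36.0 and 31.1 CPM in IMQ + H2O (adjusted p = 0.809). DESeq2 called 7 as higher, and 1 rose without VAS + H2O replicate 1 or 3 or IMQ + H2O replicate 2, 2 without VAS + H2O replicate 2 or IMQ + H2O replicate 3.

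**Figure D5:**
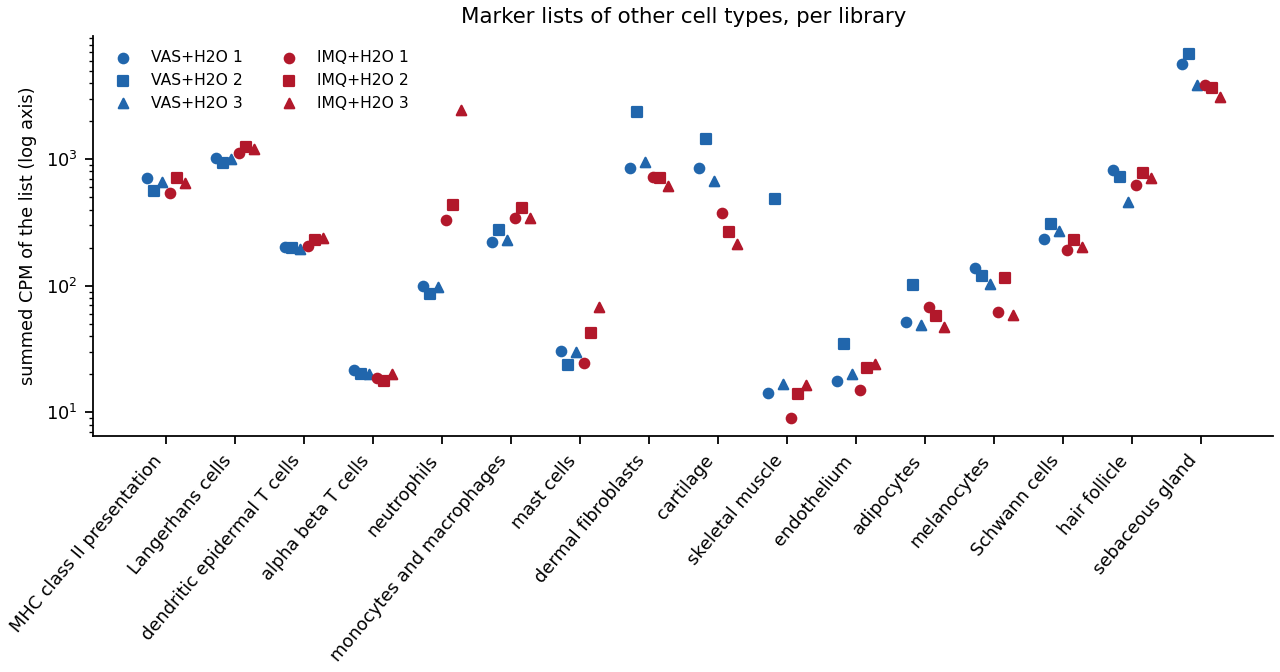
Summed CPM, on a log axis, of each marker list of other cell types in each library, blue for VAS + H2O and red for IMQ + H2O, with a symbol per replicate. VAS + H2O replicate 2 stands alone for skeletal muscle at 484 CPM and IMQ + H2O replicate 3 for neutrophils at 2441 CPM. Of the latter sum, S100a8 and S100a9 held 998 and 1069 CPM. All 3 IMQ + H2O libraries lie below all VAS + H2O libraries for cartilage. The same holds for dermal fibroblasts, Schwann cells, sebaceous gland and, narrowly, alpha beta T cells.

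Among the gene lists, those of cartilage and dermal fibroblasts had the largest shares of members that fell. Of 15 cartilage genes tested, 14 fell, 13 of them DEGs, with a median of -2.46, and the sum of the list was 856, 1456 and 668 CPM in VAS + H2O and 378, 265 and 214 CPM in IMQ + H2O. Col11a2 measured 24.4, 64.7 and 33.3 CPM in VAS + H2O and 5.83, 5.87 and 4.91 CPM in IMQ + H2O (log2 fold change -2.88 ± 0.37, adjusted p = 0.00697). Chad, chondroadherin, measured 125, 207 and 83.7 CPM in VAS + H2O and 31.6, 23.2 and 19.6 CPM in IMQ + H2O (log2 fold change -2.48 ± 0.35, adjusted p = 0.00818), and Col9a3 measured 17.8, 42.5 and 23.6 CPM in VAS + H2O and 5.90, 4.10 and 3.95 CPM in IMQ + H2O (log2 fold change -2.59 ± 0.35, adjusted p = 0.00792). Although VAS + H2O replicate 2 was highest for all 15, the other VAS + H2O libraries also lay above IMQ + H2O, and 12 fell without it, with a median of -2.0. Col11a1 and Col27a1 had -2.5 ± 0.38 and -1.99 ± 0.30. Of 24 fibroblast genes, 10 fell and 3 rose, with a median of -2.26, and 16 were lower in DESeq2. Sparc, a matrix protein, measured 238, 566 and 259 CPM in VAS + H2O and 106, 67.6 and 69.0 CPM in IMQ + H2O (log2 fold change -2.13 ± 0.37, adjusted p = 0.0126), and Col6a1 measured 63.2, 178 and 66.2 CPM in VAS + H2O and 25.8, 18.9 and 13.5 CPM in IMQ + H2O (log2 fold change -2.40 ± 0.46, adjusted p = 0.0158). Col1a1, the main dermal collagen, measured 3.71, 56.3 and 8.55 CPM in VAS + H2O and 4.68, 5.42 and 8.09 CPM in IMQ + H2O (adjusted p = 0.183), where VAS + H2O replicate 1 was the lowest of all libraries and replicate 2 alone stood far above the others. Col6a3 and Fbn1 had -2.44 ± 0.46 and -2.47 ± 0.50, and Fbln1 rose by 1.05. Without VAS + H2O replicate 2, 8 fibroblast genes fell with a median of -0.99, and without IMQ + H2O replicate 1, 2 or 3, 5, 5 and 2 fell. Of 13 skeletal muscle genes tested, 0 were called in edgeR, against 1 as lower in DESeq2 and 9 lower at an unadjusted p under 0.05, and without VAS + H2O replicate 2 their median log2 fold change went from -3.73 to -0.34.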

How the data were processed

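RNA from ear epidermal sheets of both groups was sequenced by the authors. The labels call the libraries strand-specific, while the methods name a TruSeq kit without saying so, and reads of overlapping genes may be shared. The submitters' notes name STAR 2.5, FastQC, Cuffnorm and DESeq 1.22.1 with the GRCm38 genome. The counting tool and its strand setting are not given in the sources used here. The deposited values are raw counts per gene, with no normalization, and all columns of the 6 libraries were used as deposited. The members and gene lists were chosen with earlier results of these data known.

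Genes with at least 10 counts in 3 or more of the 6 libraries were tested in R 4.3.3 with edgeR 4.0.16 (TMM factors, quasi-likelihood F test, group as the only term) and p-values were adjusted by the Benjamini-Hochberg method over all genes tested. DEGs were those with a log2 fold change of 1 or more in either direction and an adjusted p no larger than 0.05. Log2 fold changes are given as IMQ + H2O minus VAS + H2O ± SE, with 3 libraries per group. Totals of 30298275 to 44681447 counts set the precision, and counting intervals are exact 95% intervals. The fitting steps were tested on simulated data. Where a symbol had several identifiers, the lowest-numbered one was taken for a list, and 4 listed names were absent from the table. No list median changed when DEGs with 3 or fewer counts in a group were set to their bound or counting ratio. This check could hardly fail, since those values stay far from the medians. Requiring at least 10 counts in all 6 libraries did move medians, for chemokines to 0.812 and for Sprr and Lce genes to 0.008. Named genes were the 10 DEGs with the largest and the 10 with the smallest log2 fold change without overlap at a mean of at least 5 CPM, up to 6 called members of each list with the smallest adjusted p, up to 4 members that did not pass, Tlr7 and the defining cytokines, and genes with a promoter shown. Some genes that this rule names are not reported here. Promoters were the 250 bases before RefSeq starts on GRCm38.p6. Alternatives were DESeq2 1.42.0, other size factors, count filters and thresholds, all 9 libraries in 1 fit, a covariate, replicate block and fits without each library.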

Additional observations from a re-analysis of the deposited data

How the results depend on the processing

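The counts of 694 higher and 661 lower DEGs stayed within 1.5 times under DESeq2, other size factors, other count filters and a fit of all 9 libraries, from 571 to 746 higher and from 539 to 893 lower. They became 2438 and 1469 with the adjusted p alone, 68 and 10 with glmTreat, and 0 and 0 with the cartilage and fibroblast covariate, the design being unable to tell that level from treatment. Under that covariate Il19 (-0.059), Il23a (-0.75), Il24 (-5.04) and Cxcl3 (-14.64) changed sign, none past the threshold. Leaving out 1 library gave 410 to 699 higher and 305 to 643 lower DEGs, the lowest without IMQ + H2O replicate 3. Moves of over 1.5 times were also found in the fits without VAS + H2O replicate 1 (451 and 421), without VAS + H2O replicate 2 (431 and 315) and, for lower DEGs, without IMQ + H2O replicate 1 (398). Without VAS + H2O replicate 2 and IMQ + H2O replicate 3, an alternative chosen after seeing the data, 302 and 197 were called. Of 183 named genes, 146 to 165 kept their call without 1 library and 129 without both.

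With a replicate block 630 higher and 497 lower DEGs were called, 583 and 447 of them shared with the fit without it. The replicate numbers did not pair the libraries, since deviations of same-numbered libraries correlated at 0.007, 0.006 and 0.042, and 1 of 3 pairs correlated best with its own number. Under the block 41 cell cycle genes rose and 2 markers of dendritic epidermal T cells fell. With 3 libraries a group, small differences in genes with wide spread were not detectable.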

Other observations

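Markers of skin appendages and minor cell types are not described above. Of 18 sebaceous gland genes, 2 rose and 3 fell, against 13.4% and 8.09% over all genes, with a median of -0.06. Scd1, the desaturase of sebum, measured 3670.0, 4917 and 2645 CPM in VAS + H2O and 1938, 1763 and 1468 CPM in IMQ + H2O (log2 fold change -1.12 ± 0.23, adjusted p = 0.0189). Plin2, a coat protein of lipid droplets, measured 55.9, 66.8 and 41.6 CPM in VAS + H2O and 96.2, 83.9 and 122.7 CPM in IMQ + H2O (log2 fold change 0.88 ± 0.20, adjusted p = 0.0261). The summed sebaceous list was 3876 to 6751 CPM in VAS + H2O and 3079 to 3852 CPM in IMQ + H2O, and Scd1 and Plin2 lost their calls without VAS + H2O replicate 1 or IMQ + H2O replicate 3. Of 12 hair follicle genes, 2 fell, Msx2 (log2 fold change -0.66 ± 0.13, adjusted p = 0.017) and Sox9 (log2 fold change -0.96 ± 0.28, adjusted p = 0.0473), transcription factors of follicle growth and of its stem cells, and without VAS + H2O replicate 2 neither did.

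All 13 melanocyte genes had negative log2 fold changes, with a median of -0.66. None was called in edgeR, against 1 in DESeq2 and 3 with an unadjusted p under 0.05. Tyr, tyrosinase, measured 2.15, 1.58 and 1.14 CPM in VAS + H2O and 0.698, 1.05 and 0.564 CPM in IMQ + H2O (adjusted p = 0.0758). Of 10 Schwann cell genes, 2 fell, against 8.09% over all genes. S100b, a calcium-binding protein that cartilage expresses too, measured 21.2, 38.7 and 22.1 CPM in VAS + H2O and 8.52, 6.44 and 4.84 CPM in IMQ + H2O (log2 fold change -2.06 ± 0.31, adjusted p = 0.00909), and Ngfr, the low-affinity receptor of neurotrophins, measured 69.3, 53.8 and 65.8 CPM in VAS + H2O and 15.6, 31.9 and 15.9 CPM in IMQ + H2O (log2 fold change -1.57 ± 0.29, adjusted p = 0.0146). Both were lower in every IMQ + H2O library, while Egr2, a transcription factor of myelination, overlapped at 86.4, 105 and 99.8 CPM in VAS + H2O and 85.6, 98.5 and 102 CPM in IMQ + H2O (adjusted p = 0.903).

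Of 7 alpha beta T cell genes, Cd28 fell (log2 fold change -2.06 ± 0.53, adjusted p = 0.0357). Of 15 endothelial genes, Vwf, the von Willebrand factor, fell (log2 fold change -2.01 ± 0.50, adjusted p = 0.0314). Each was the only member of its list called, against 8.09% that fell over all genes, and each call was lost in most fits without 1 library. Of 4 mast cell and 8 adipocyte genes, 0 were called in edgeR and 0 in DESeq2, and 1 and 2 had an unadjusted p under 0.05.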
